A study of Mus musculus with 3 samples.

Results

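Peaks of H3K27ac, the histone mark of active enhancers and promoters, were located by ChIP-seq around 10 imprinted genes, Dlk1, Meg3, H19, Igf2, Cdkn1c, Peg3, Grb10, Plagl1, Mest and Nnat, in MIN6 cells. Deposited peaks of 3 libraries that touched or overlapped were joined into regions, and a region belonged to a member if it lay inside the gene, or within 50 kb of it with no other protein-coding gene nearer. By this rule 22 of 52938 regions belonged to 7 of the 10 genes, 19 of them present in wild type, 13 in heterozygous and 7 in homozygous cells. Of all 21885 genes tested the same way, 66.6% had a region in at least 1 library. MIN6 is a mouse insulinoma line used as a model of the beta cell. Per the labels, cells carrying lentiviral Cas9 were given a lentiviral guide RNA against Arid1a, a gene for a subunit of SWI/SNF chromatin remodellers, and single-cell clones were sorted by PCR genotyping and Western blotting into wild type, heterozygous ARID1A KO and homozygous ARID1A KO. As the labels tell it, all 3 groups share Cas9, the guide and clonal outgrowth. In the wild-type list, however, the peak names hold the tag GAL4, which no source used here explains, so whether the wild-type cells had received the Arid1a guide is not known from these files. Each genotype had 1 library and the number of clones behind it is not given, so differences are between single libraries, without replicate check or p-value.

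Imprinted genes are transcribed from the copy of 1 parent, under differentially methylated control regions whose methylation is set in the germ line. The members lie in several such domains. Dlk1, which encodes a Notch-family ligand-like membrane protein, and the noncoding RNA gene Meg3 are expressed from opposite parental copies of one domain. The growth factor gene Igf2 and the noncoding RNA gene H19 form another, next to the insulin gene Ins2, and Cdkn1c, which encodes the cyclin-dependent kinase inhibitor p57Kip2, lies in the neighbouring domain. Peg3 and Plagl1 encode zinc finger proteins, Grb10 an adaptor that restrains insulin and IGF receptor signalling, Mest a protein of the hydrolase fold family, and Nnat neuronatin, a small membrane protein of the endoplasmic reticulum that takes part in insulin secretion. The peak lists do not tell the parental copies apart.

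Promoter windows are shown first for the starts at or beside which peaks were called. RefSeq windows on GRCm38.p6, the assembly of mm10, run from 250 bases before to 50 bases after an annotated start. They matched 8 of the 10 genes, with 15 windows in all, and none was listed for H19 or Cdkn1c. Capitals mark TGCCGC, the hexamer that the imprinting factor ZFP57 binds when methylated, on either strand, and a window without capitals has no such match. All are written 5′ to 3′ along the gene.
Igf2 window with a peak in all 3 libraries, chr7:142658755-142659054, minus strand: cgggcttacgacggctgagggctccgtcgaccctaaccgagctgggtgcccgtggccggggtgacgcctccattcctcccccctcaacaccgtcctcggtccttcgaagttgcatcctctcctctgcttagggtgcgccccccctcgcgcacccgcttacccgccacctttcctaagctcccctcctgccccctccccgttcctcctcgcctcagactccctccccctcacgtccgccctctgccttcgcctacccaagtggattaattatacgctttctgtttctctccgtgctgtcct
Igf2 window with a peak in wild type only, chr7:142661222-142661521, minus strand: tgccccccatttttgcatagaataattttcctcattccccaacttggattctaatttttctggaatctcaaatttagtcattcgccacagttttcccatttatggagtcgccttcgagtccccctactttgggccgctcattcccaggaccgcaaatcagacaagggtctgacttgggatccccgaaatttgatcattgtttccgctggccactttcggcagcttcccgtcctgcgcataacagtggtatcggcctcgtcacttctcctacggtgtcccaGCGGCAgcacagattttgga
Plagl1 window with a peak in wild type and the homozygous library, chr10:13090582-13090881, plus strand: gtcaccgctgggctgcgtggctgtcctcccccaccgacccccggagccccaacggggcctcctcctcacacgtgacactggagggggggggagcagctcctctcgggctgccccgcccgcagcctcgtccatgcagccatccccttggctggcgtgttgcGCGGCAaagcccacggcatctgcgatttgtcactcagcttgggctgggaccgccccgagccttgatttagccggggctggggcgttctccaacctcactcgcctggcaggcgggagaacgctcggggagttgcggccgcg
Peg3 window between peaks of all 3 libraries, chr7:6730370-6730669, minus strand: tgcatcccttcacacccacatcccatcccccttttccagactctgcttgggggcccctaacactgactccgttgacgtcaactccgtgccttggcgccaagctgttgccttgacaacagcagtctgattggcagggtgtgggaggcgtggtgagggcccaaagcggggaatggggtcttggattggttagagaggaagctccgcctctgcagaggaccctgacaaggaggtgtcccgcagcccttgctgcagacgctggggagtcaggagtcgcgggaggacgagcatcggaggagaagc
Meg3 window upstream of a heterozygous peak, chr12:109540746-109541045, plus strand: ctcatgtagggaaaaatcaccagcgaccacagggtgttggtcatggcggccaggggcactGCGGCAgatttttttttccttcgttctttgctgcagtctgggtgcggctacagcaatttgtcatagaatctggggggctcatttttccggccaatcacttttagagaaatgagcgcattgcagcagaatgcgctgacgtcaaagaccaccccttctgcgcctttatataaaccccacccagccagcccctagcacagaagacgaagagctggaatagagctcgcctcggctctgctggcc
Nnat window upstream of a heterozygous peak, chr2:157559828-157560127, plus strand: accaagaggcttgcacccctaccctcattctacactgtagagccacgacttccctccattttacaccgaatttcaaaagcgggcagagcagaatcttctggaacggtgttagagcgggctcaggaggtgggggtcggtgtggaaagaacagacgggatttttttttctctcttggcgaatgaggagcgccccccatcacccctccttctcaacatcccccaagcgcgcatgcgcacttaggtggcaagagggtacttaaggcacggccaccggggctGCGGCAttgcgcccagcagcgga

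TGCCGC was found in 7 of the 15 member windows, from 6 genes, beside 11.6% of all 32851 windows of 300 bases. The genes were Meg3, Igf2, Grb10, Plagl1, Mest and Nnat, with 2 matches in each of a pair of Mest windows that overlap by all but 3 bases. The YY1 core AANATGGC was in none of the member windows and in 6.05% of all windows. GGNGGCAG, part of the CTCF core, was in 2 member windows, one of Igf2 and one of Grb10, and in 12.6% of all windows. Both strands were searched, and 1 pair of matches overlapped, a TGCCGC with a GGNGGCAG match at Grb10. GC content lay above the median of all windows, 52.7%, in 11 of the 15, and its part in the matches was not tested. A match describes letters and does not show binding.

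Overlaps of promoter windows with peaks were counted per library. The 15 member windows came from 8 genes, with 4 at Igf2 and overlapping ones at Mest, so they are not independent. In wild type 4 of the 15 member windows overlapped a peak, beside 34.9% of all windows, in the heterozygous library 1, beside 32.0%, and in the homozygous library 2, beside 33.0%. One of the 4 in wild type was the Peg3 window, which shared a single base with a peak of the neighbouring gene Usp29.

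**Figure D1:**
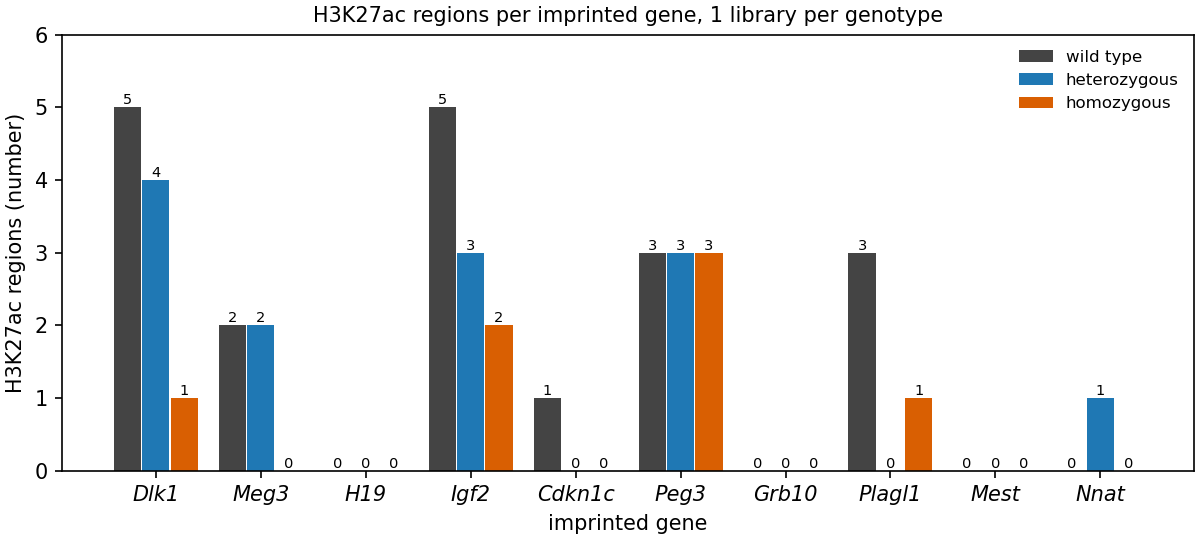
Number of H3K27ac regions (y axis) with a peak in each library, for each of the 10 imprinted genes (x axis); bars are single libraries with no error. Peg3 has 3 regions in every library, Dlk1 has 5, 4 and 1 in wild type, heterozygous and homozygous, and H19, Grb10 and Mest have 0.

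Of the 19 wild-type regions, 12 had no homozygous peak (63.2%, Wilson 95% interval 41.0 to 80.9%), beside 39.4% of all wild-type regions. In the reverse direction 0 of the 7 homozygous regions lacked a wild-type peak (interval up to 35.4%), beside 25.9% of all homozygous regions. The heterozygous library lacked 9 of the 19 wild-type regions (47.4%, 27.3 to 68.3%), beside 42.4% over the genome, and 3 of its 13 regions were not in wild type (23.1%, 8.18 to 50.3%), beside 21.4%. Between the knockouts, 8 of 13 heterozygous regions had no homozygous peak (61.5%, 35.5 to 82.3%), beside 27.6%, and 2 of 7 homozygous regions had no heterozygous peak (28.6%, 8.22 to 64.1%), beside 35.1%. The intervals cover counting error only and treat neighbouring regions of one gene as independent, which they are not. Both knockout comparisons share the wild-type list. Genome-wide shares lay below the interval of the members for wild-type and for heterozygous regions without a homozygous peak. They lay inside it in the other 4 cases. As neighbouring regions are not independent, these intervals cannot decide whether the members differ from the genome. Of the 8 heterozygous regions without a homozygous peak, 6 lay in the Dlk1 and Meg3 domain. List length bore on these counts. With each list cut to its strongest peaks by −log10 q, as many as in the shortest list, wild type and the heterozygous library had 13 member regions each and the homozygous library 7. Then 7 rather than 12 wild-type regions had no homozygous peak, beside 30.3% over the genome, which the interval of 29.1 to 76.8% includes, and 4 rather than 9 no heterozygous one, beside 30.5%. In reverse, 1 homozygous and 4 heterozygous regions had no wild-type peak, beside 29.5% and 28.1%. Between the knockouts the counts stayed at 8 of 13 (interval 35.5 to 82.3%), beside 29.8%, and 2 of 7, beside 31.4%.

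By gene, Meg3 and Cdkn1c, 2 of the 6 members with wild-type regions, had none in the homozygous library, beside 10.0% of all genes with a wild-type region. Cdkn1c and Plagl1 had none in the heterozygous library, beside 10.6%. Both Meg3 regions of wild type lay 31246 bp or more away, and Meg3 had none in wild type or the homozygous library with a window of 10 kb or with noncoding genes competing. Cdkn1c had none in any library with lists of equal length. Over the 3 libraries 5 of the 22 regions were present in all (22.7%, beside 36.8% of all regions), 5 in wild type and heterozygous, 2 in wild type and homozygous, 7 in wild type alone and 3 in the heterozygous library alone. The 10 peaks found in a single library all had a −log10 q below the median of their own list, as had 26 of all 40 member peaks. The same share among all single-library peaks of the genome was not computed, so this is not shown to be particular to the members. In a bulk library, fewer cells or gene copies with the mark and less of the mark on each cannot be told apart.

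The peak lists differed in length, and the libraries may have differed in depth. The lists held 31365 to 41490 peaks with median widths of 474 to 509 bp. A summit pile-up and a local background, in reads, could be solved from the deposited fold and −log10 p of all but 1 to 2 peaks per list. The lowest background of a list, which may serve as its relative depth, was 2.17 in wild type and 1.73 in both knockouts. Whether it follows depth was not tested. Median pile-ups were 49 reads in wild type, 47 in heterozygous and 54 in homozygous cells. Depth and genotype cannot be told apart in any count against wild type. A peak lay within 1 kb of 10 of 10 beta cell marker genes in wild type, 9 in heterozygous and 10 in homozygous cells, and of 5, 6 and 4 of 22 markers of other pancreatic, mesenchymal, immune and endothelial cells.

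The Dlk1 and Meg3 domain held 8 of the 22 regions, 7 of them in wild type, 6 in heterozygous and 1 in homozygous cells. Dlk1 lies on chromosome 12 at 109452485 to 109463336 (mm10) and Meg3 at 109540996 to 109571729. No library had a peak inside Dlk1 or at its annotated start, and the acetylated regions lay upstream. Of 5 Dlk1 regions, 4 were present in wild type and the heterozygous library and not in the homozygous one, at 109441046 to 109442118, 109442144 to 109443323, 109443556 to 109444270 and 109449743 to 109450668. The first 3 form a cluster whose ends lie between 10705 and 8553 bp upstream of the Dlk1 start, and the last ends 2155 bp upstream of it.

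**Figure D2:**
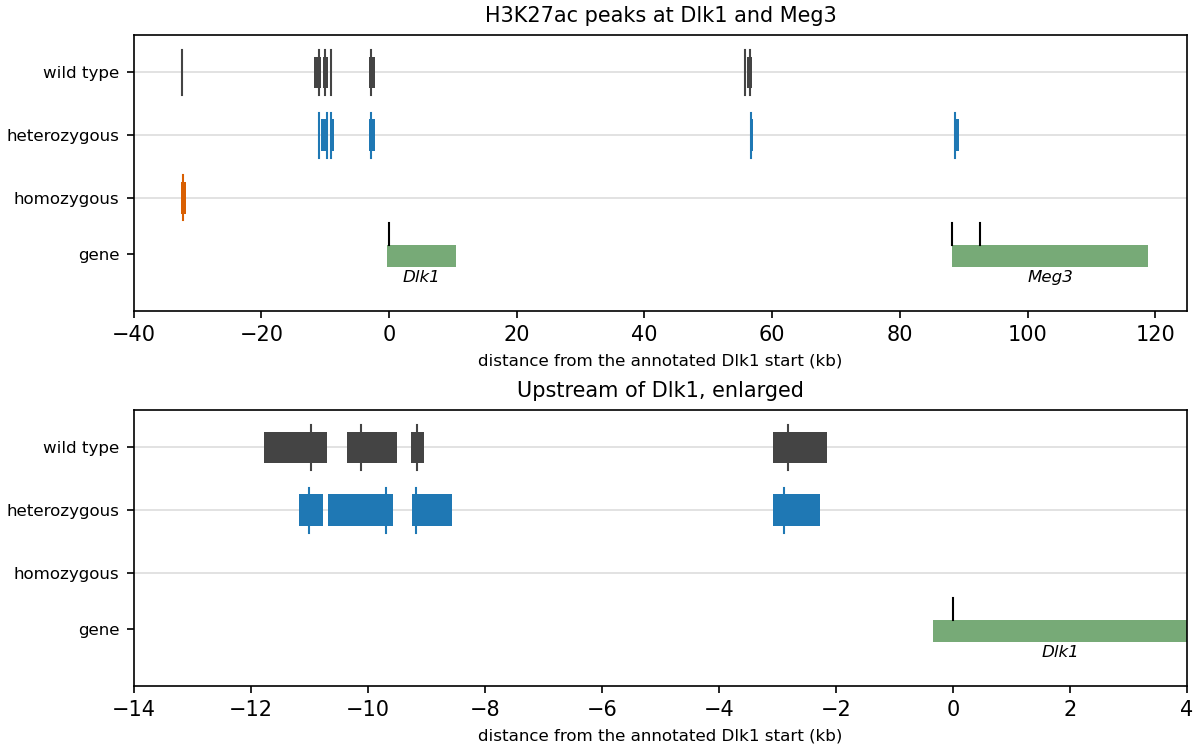
Peaks (boxes) and their summits (vertical lines) in the 3 libraries along the Dlk1 and Meg3 domain, with distance from the annotated Dlk1 start in kb on the x axis; green boxes are genes and black ticks annotated starts. The lower panel enlarges the stretch upstream of Dlk1, where wild type and heterozygous have 4 peaks each and homozygous none.

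At the outermost region of the cluster the wild-type peak was 1073 bp wide with a summit pile-up of 140 reads and the heterozygous peak 409 bp wide with 97 reads, and their summits lay 24 bp apart. Both pile-ups stood above the medians of their lists, 49 and 47 reads. The authors' fold was 4.62 in wild type and 4.53 in the heterozygous list, over local backgrounds of 29.5 and 20.6 reads. The next region had wild-type and heterozygous pile-ups of 102 and 77 reads and widths of 864 and 1119 bp, with the summits 415 bp apart. The innermost one had 82 and 59 reads and widths of 224 and 696 bp, with the summits 8 bp apart. The wild-type peak was thus the wider one at the outermost region and the narrower one at the other two. Nearest to Dlk1, the peaks had 52 and 38 reads over 926 and 804 bp.

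The homozygous library had 1 peak near Dlk1, at 109420278 to 109420954, with its near edge 31531 bp from the gene. It had a fold of 7.40, a pile-up of 32 reads and a width of 677 bp, and a wild-type peak in the same region had a fold of 6.25, 20 reads and 223 bp. The heterozygous library had none there, so this region and the 4 nearer ones showed opposite patterns between the knockouts. Over all the alternatives tried, the homozygous library had 2 to 4 fewer Dlk1 regions than wild type.

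Between the genes, 2 regions counted for Meg3 lay 32314 and 31246 bp upstream of it. The region at 109508939 to 109509750 had a wild-type peak of 684 bp with 78 reads and a heterozygous one of 468 bp with 38 reads, with summits 43 bp apart. The other, at 109508472 to 109508682, had a wild-type peak alone, of 211 bp with 53 reads. At the 5′ end of Meg3 the heterozygous library alone had a peak, at 109541302 to 109542115, starting 306 bp downstream of the annotated start shown above. It was 814 bp wide but shallow, with a fold of 4.97 and a pile-up of 16 reads, and its −log10 q of 6.6 was higher than that of only 6.6% of the peaks in its list. The nearest homozygous peak to Meg3 was 120042 bp away. In the surrounding 500 kb on both sides, regions outside the members numbered 5 in wild type, 8 in heterozygous and 4 in homozygous cells, and the noncoding gene Mirg of the same domain had 1 region in all 3.

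Igf2 spans 142650768 to 142666816 of chromosome 7. Wild type had 5 Igf2 regions, heterozygous cells 3 and homozygous cells 2, all inside the gene. It has 4 annotated starts, and most peaks lay near the middle pair. The region at 142658824 to 142659344, which overlaps the first Igf2 window shown, was present in all libraries, with peaks of 356 bp in wild type, 521 bp in heterozygous and 421 bp in homozygous cells. Its summits in wild type and the homozygous library lay 16 bp apart, and the heterozygous summit lay 158 bp from the wild-type one. The region at 142659636 to 142661205 was also in all 3 but was cut differently. It held 1 wild-type peak of 663 bp, heterozygous peaks of 341 and 213 bp, and 1 homozygous peak of 1539 bp that spanned the wild-type peak.

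The other wild-type peaks, 3 in number, had no counterpart, at 142661270 to 142661583 over the second Igf2 window shown, at 142663738 to 142664055 and at 142664231 to 142664431. They were 201 to 318 bp wide, with the authors' fold at 1.65 to 2.09. The homozygous peak of the neighbouring region ended 17 bp short of the second window. A heterozygous peak of 200 bp at 142658396 to 142658595 had none in the other libraries.

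At Igf2 in wild type both pile-up and local background were high, which keeps the fold low. Whether this background came from a control or from the ChIP reads is not known. The 5 wild-type pile-ups ran from 116 to 157 reads over backgrounds of 56.8 to 74.6 reads. The 4 heterozygous peaks had 38 to 50 reads over 12.7 to 12.8, and both homozygous peaks 76 and 93 reads over 25.1 and 25.6. These reads are not scaled for depth. Within a library the Igf2 peaks lie close together, so their backgrounds are not independent values. Those in wild type exceeded the backgrounds of at least 99.3% of the peaks in the wild-type list. At Ins2, the nearest other gene, local background was 70.3 and 70.5 reads in wild type, 34.0 in heterozygous and 32.7 and 33.1 in homozygous cells. Thus wild type had similar backgrounds at both genes, while the heterozygous and homozygous backgrounds were lower at Igf2 than at Ins2. The part of depth or of copy number in these values was not tested. The Igf2 counts also depended on the list length. With lists of equal length, the heterozygous library had 1 region more than wild type and the homozygous library as many.

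H19, at 142575530 to 142578146 on the same chromosome, had no region, and the nearest peaks lay 41678 to 41803 bp away, inside Mrpl23, in all 3 libraries. Cdkn1c, at 143458339 to 143461059, had 1 wild-type peak, 282 bp beyond one gene end, at 143461341 to 143461568. That peak was 228 bp wide, with a fold of 5.67 and 17 reads. The nearest heterozygous and homozygous peaks were 51136 and 50943 bp from Cdkn1c. With lists of equal length the wild-type peak was no longer among those kept.

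**Figure D3:**
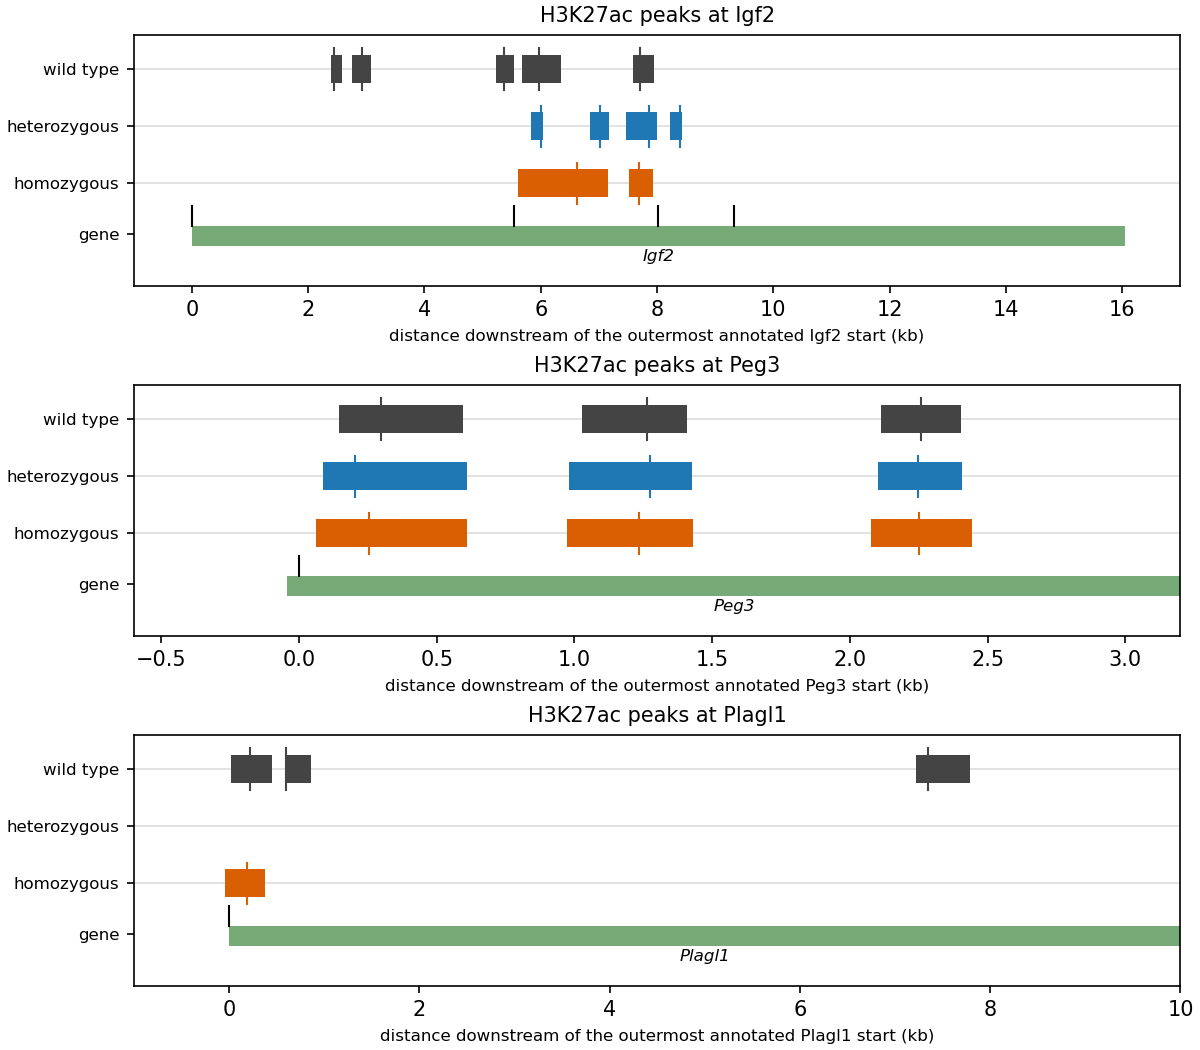
Peaks (boxes) and summits (vertical lines) in the 3 libraries at Igf2, Peg3 and Plagl1, with distance downstream of the outermost annotated start in kb on the x axis; green boxes are genes and black ticks annotated starts. The 3 Peg3 peaks line up in all libraries, the Igf2 peaks are cut differently in each, and Plagl1 has none in the heterozygous library.

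Peg3, on chromosome 7 at 6703892 to 6730462, was the only member with all its regions in every library. Its 3 regions, at 6727976 to 6728344, 6728989 to 6729446 and 6729809 to 6730357, lie just downstream of its annotated start. In each of them the wild-type peak was the narrowest and the homozygous peak the widest, with 293, 306 and 369 bp in wild type, heterozygous and homozygous at the first, 384, 448 and 458 bp at the second, and 452, 524 and 548 bp at the third. Every wild-type peak lay wholly within the peaks of both knockouts. Summits of the 3 libraries lay 4 to 95 bp apart.

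Pile-ups at the 3 Peg3 regions were 117, 124 and 81 reads in wild type, 103, 96 and 57 in the heterozygous and 199, 179 and 157 in the homozygous library. The homozygous pile-ups, not scaled for depth, were the highest at each region. Local backgrounds were 30.4 to 31.7 reads in wild type, 17.4 to 17.5 in heterozygous and 35.9 to 36.1 in homozygous cells. The authors' fold ran from 2.51 to 3.84 in wild type, 3.14 to 5.66 in heterozygous and 4.29 to 5.40 in homozygous cells. Since a fold is a ratio within its own library, these are given side by side and not compared. With a fold of at least 4 required in each list, Peg3 kept no wild-type region, so that the homozygous library had 3 and the heterozygous library 2 more. That count follows from a cutoff on ratios within each library, as all 3 regions had a peak in every library.

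The Peg3 promoter window itself lay in a gap between peaks. It was separated from the Peg3 peak below it by 95 bp in wild type, 37 bp in heterozygous and 12 bp in homozygous cells. On the other side, where Usp29 begins, the gap to the next peak was 93 bp in heterozygous and 48 bp in homozygous cells, and the wild-type peak reached the last base of the window. Usp29, the deubiquitinase gene that shares this promoter, had 16 regions in wild type, 3 in heterozygous and 4 in homozygous cells. Regions around Peg3 within 500 kb, outside the members, numbered 33, 16 and 22, whereas Peg3 itself had 3, 3 and 3.

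Plagl1 spans 13090832 to 13131694 of chromosome 10. Wild type had 3 Plagl1 regions and the homozygous library 1, while the heterozygous library had 0 and its nearest peak was 60930 bp away. The region at its annotated start, 13090794 to 13091285, had a wild-type peak of 430 bp with 49 reads over a background of 8.2 and a homozygous one of 415 bp with 34 reads over 2.4, and their summits lay 33 bp apart. The homozygous peak had a fold of 10.23, higher than 84.5% of its list. The other wild-type peaks, at 13091418 to 13091697 and 13098053 to 13098622, had folds of 2.78 and 4.43. Their −log10 q was 4.0 and 9.4, at the 0.1 and 21.6 percentiles of the wild-type list. With lists of equal length, the homozygous library had as many Plagl1 regions as wild type, and the heterozygous library 1 fewer. Within 50 kb of Plagl1, 4 further wild-type regions lay inside Zc2hc1b and had no peak in either knockout.

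Nnat, on chromosome 2 at 157560078 to 157562525, lies within the gene Blcap. It had 1 heterozygous region, at 157560181 to 157560470, 103 bp downstream of its annotated start, and 0 in the other libraries. The peak had a fold of 4.83, 290 bp and 25 reads. The nearest wild-type and homozygous peaks, 3378 and 3353 bp away, belonged to a Blcap region that all 3 libraries shared. Grb10, on chromosome 11 at 11930499 to 12037428, and Mest, on chromosome 6 at 30733506 to 30748466, had no region. Their nearest peaks were 41587 to 45122 bp away inside Ddc, which encodes aromatic amino acid decarboxylase, and 39135 to 39258 bp away inside Cep41. In total 25 regions within 50 kb of a member were nearer to another gene, with 21 present in wild type, 15 in heterozygous and 15 in homozygous cells.

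**Figure D4:**
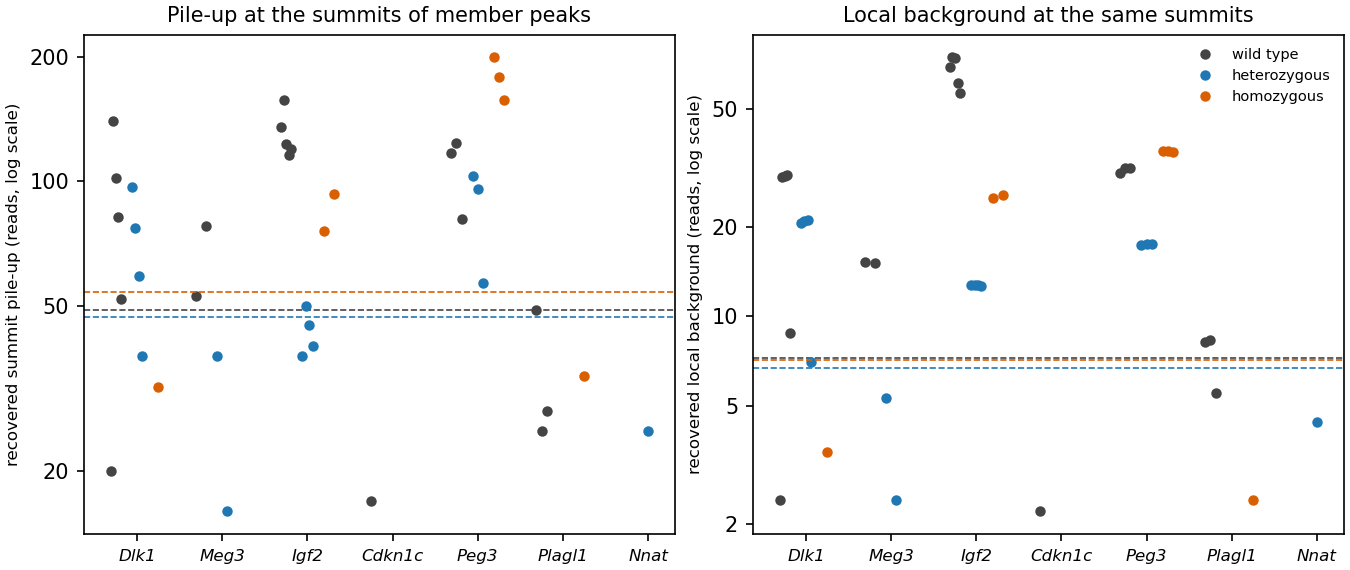
Recovered summit pile-up (left, reads, log scale) and local background (right, reads, log scale) of each member peak by gene and library, not scaled for depth; dashed lines are the medians of all peaks of each list. Igf2 in wild type stands highest in background, at 56.8 to 74.6 reads, and Peg3 in the homozygous library highest in pile-up, at 157 to 199 reads.

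Most member peaks had low folds and high local backgrounds within their lists. Of 40 peaks, 35 lay below the median fold of their own list, and 32 lay above its median background. Neighbouring peaks at Igf2, Peg3 and Dlk1 share much of their background, so the 40 are not independent. Fold falls as background rises, so both counts are linked. The peaks at Cdkn1c and Nnat, and some at Dlk1, Meg3 and Plagl1, lay below the median background. The exceptions in fold were the homozygous peaks at Plagl1 and near Dlk1, the wild-type peak in the same outlying Dlk1 region, the wild-type peak at Cdkn1c and the heterozygous peak between Dlk1 and Meg3. Median widths of member peaks were 356 bp in wild type, 458 bp in heterozygous and 458 bp in homozygous cells, beside 509, 474 and 489 bp for all peaks. Covered length was 8694 bp over 19 wild-type peaks, 7153 bp over 14 heterozygous and 4427 bp over 7 homozygous peaks, with mean widths of 457.6, 510.9 and 632.4 bp. With lists of equal length, covered length was 6628 bp in wild type, 7153 bp in heterozygous and 4427 bp in homozygous cells, so wild type no longer exceeded heterozygous. The wild-type median width was then 430 bp.

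**Figure D5:**
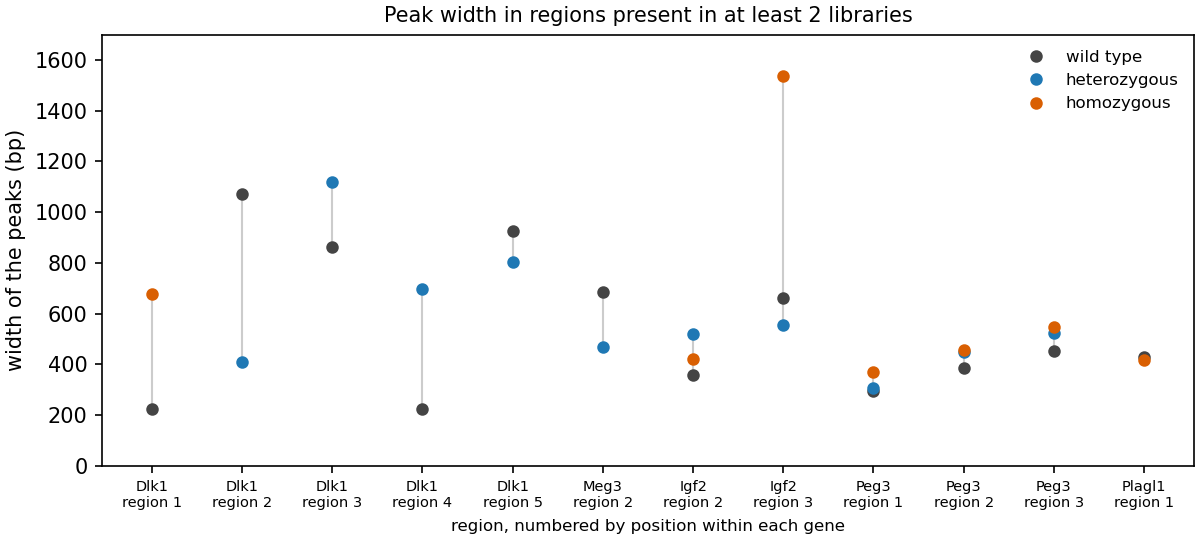
Summed peak width in bp (y axis) in each library for the 12 member regions present in at least 2 libraries (x axis, numbered by position on the chromosome); grey lines join libraries and carry no error. At Peg3 the order is wild type, heterozygous, homozygous in all 3 regions, while the order differs between regions at Dlk1 and Igf2.

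Among member regions with a single peak in both libraries compared, the homozygous peak was wider than the wild-type one in 6 of 7, beside 40.4% of all such regions, and the heterozygous peak in 6 of 9, beside 28.3%. Of the 7 and 9, 3 each were at Peg3. The median distance between summits was 33.0 bp for homozygous and 43.0 bp for heterozygous against wild type, beside 38.0 and 39.0 bp over all such regions. By place, 7 wild-type, 7 heterozygous and 5 homozygous regions lay within 1 kb of an annotated start, whereas 7, 5 and 1 lay outside the genes. Those near a start came from Igf2, Peg3, Plagl1, Meg3 and Nnat.

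Other imprinted genes were taken from a list of 61, of which 60 matched a symbol. They had 217 regions at 37 genes, 164 in wild type, 112 in heterozygous and 139 in homozygous cells, and 76 were in all 3 (35.0%). These counts also depended on list length. With lists of equal length they were 119 in wild type, 112 in heterozygous and 124 in homozygous cells. The shares and gene counts that follow use the full lists. Of the wild-type regions 62 had no homozygous peak (37.8%) and 76 no heterozygous one (46.3%), beside 39.4% and 42.4% over the genome. In the other direction 26.6% of homozygous and 21.4% of heterozygous regions lacked a wild-type peak. Fewer regions than in wild type were found for 14 genes in the homozygous library and more for 10, and for 21 and 7 in the heterozygous library, each of 37. Over all genes with a region, 33.7% had fewer and 16.6% more in the homozygous library, and 38.3% fewer and 11.2% more in the heterozygous one. Nested genes on this list shared their regions with a host, to which the count went. The heterozygous Nnat region, which lies inside Blcap, was counted both for Nnat among the members and for Blcap here.

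Zdbf2 had 8 regions in wild type and 1 in each knockout, and Ddc, next to Grb10, had 8, 3 and 5 in wild type, heterozygous and homozygous. Trappc9 had 25, 17 and 33, the phosphatase gene Inpp5f 11, 12 and 12, and the signal peptide peptidase gene H13 had 6, 5 and 6. Igf2r, which encodes the receptor that clears IGF2, had 6, 5 and 7 regions, its antisense noncoding RNA gene Airn 5, 3 and 4, the potassium channel gene Kcnq1 3, 6 and 4, and the amino acid transporter gene Slc38a4 6, 3 and 6. Genes with wild-type regions and none in either knockout were Asb4, with 4, Slc22a2, an organic cation transporter gene, with 2, and Gatm, a gene of creatine synthesis, with 2. Of all genes with a wild-type region, 10.0% had none in the homozygous and 10.6% none in the heterozygous library. The share with none in either was not computed, and these genes were not recounted with lists of equal length. Mkrn3 had 1, 0 and 1 and Sfmbt2 had 2, 0 and 3. Begain had a heterozygous region alone, Kcnk9 a homozygous region alone, and Tspan32 had 0, 1 and 2.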

How the data were processed

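H3K27ac ChIP-seq had been done in MIN6 cells of 3 genotypes with 1 library each, and no read totals were used. Peaks had been called per library with MACS2 on mm10 after bcl2fastq, per the submitters' processing notes, with versions, aligner, control and threshold not given in the sources used. The deposited lists give each peak's position, its fold enrichment (a ratio within its library) and its −log10 p and −log10 q. Fold and −log10 q were used within a list. Pile-ups and backgrounds of different libraries were set side by side unscaled, without a test. Pile-up and background were solved as fold = (pile-up + 1)/(background + 1) with p a Poisson tail, to within 0.001 of −log10 p. Regions, assignment and Wilson 95% intervals were computed with pandas 2.3.3, numpy 2.4.6 and scipy 1.17.1 under Python 3.11.15, and figures drawn with matplotlib 3.10.9. Overlap, assignment and pile-up recovery were tested on simulated data. Genes came from RefSeq for GRCm38.p6, with 21883 protein-coding genes and the noncoding members. That table gives no exons, introns or UTRs, and strand came from the promoter table. Nearness does not show regulation. A region within 1 kb of an annotated start was placed there, or of either gene end where the strand is not known. All 10 members were named. Of the other imprinted genes, the 10 with the most regions were named (the tenth, Airn, tied at 6 with Atp10a, Gnas, Osbpl5, Rasgrf1 and Snrpn and was taken by symbol), with every one that had regions in wild type and none in a knockout or the reverse. Members and lists were chosen with earlier results of these data known. The alternatives changed the overlap, merging, peak thresholds, window, competing genes and the point distances were taken from.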

Additional observations from a re-analysis of the deposited data

How the results depend on the processing

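A count or width was taken as unmoved within 1.5 times its value, which held for 132 of 167 values over 12 alternatives. With peaks within 1 kb merged, wild type had 10, heterozygous 7 and homozygous 4 member regions, with 6 and 5 wild-type regions absent from the homozygous and heterozygous libraries and 5 heterozygous ones absent from the homozygous library. Lists of equal length left 7 and 4 wild-type regions absent from the homozygous and heterozygous libraries and 1 homozygous region absent from wild type. At −log10 q of at least 10, chosen after seeing the data, heterozygous had 8 regions over 4599 bp, 7 wild-type and 4 heterozygous regions were absent from the homozygous library, and 1 homozygous and 1 heterozygous region from wild type. A fold of at least 4 gave 7 regions each in wild type and heterozygous, covering 4134, 3539 and 2467 bp in wild type, heterozygous and homozygous, with a wild-type median width of 570 bp. Then 5 and 4 wild-type regions were absent from the homozygous and heterozygous libraries, 5 heterozygous ones from the homozygous library and 3 homozygous ones from wild type. A window of 10 kb left 1 homozygous region absent from the heterozygous library. With no competing genes, 40, 28 and 22 regions were counted in wild type, heterozygous and homozygous, with 21 and 17 wild-type regions absent from the homozygous and heterozygous libraries, 3 homozygous and 5 heterozygous ones absent from wild type, and 4 homozygous ones absent from the heterozygous library. Distances from the summit left 3 homozygous regions within 1 kb of a gene start or end. The difference of the heterozygous library from wild type turned to 1 region more at Igf2 with lists of equal length, and to 2 fewer (-2) at Nnat with no competing genes. Of these changes, the cause was not tested. What depth limits was not tested, as no read totals were used. No paired analysis was possible because each genotype had 1 library.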
